A study of Arabidopsis thaliana with 8 samples.

Results

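The 33 loci described here belong to the mitochondrial genome of Arabidopsis and were chosen by their locus codes, which begin with ATMG, out of 29920 loci measured. Their levels came from 8 tiling arrays of seedlings aged 7 days: 3 arrays of shoots and 1 array of roots of the root meristemless1 (rml1) mutant, and the same numbers for the wild type, Columbia-0. The mutation of rml1 lies in GSH1, the gene of glutamate-cysteine ligase, with which the synthesis of glutathione begins, and mutant seedlings fail to maintain a root meristem. The rml1 shoot arrays pooled 61, 65 and 108 shoots and the wild type shoot arrays 30 shoots each, while the root arrays pooled 234 rml1 roots and 90 wild type roots. All plants grew on the same medium with no further treatment named in the labels, which give an ecotype for the wild type samples alone. With 1 root array per genotype, root differences have no replicate error and were not tested, and the number of arrays limits the precision of every comparison.

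Plant mitochondria keep a small genome of their own that is transcribed in the organelle by enzymes made from nuclear genes. It encodes some subunits of the respiratory chain and of ATP synthase, proteins that mature cytochrome c, ribosomal proteins, ribosomal RNAs and transfer RNAs, whereas most other subunits of the same complexes come from nuclear genes and are imported. Much of its output is set after transcription, by splicing, editing, processing and decay of RNA. For the assembly TAIR10.1, RefSeq's table of genes lists on the mitochondrial chromosome 33 protein-coding genes, among them 9 symbols of NADH dehydrogenase subunits (nad), 3 of cytochrome c oxidase (cox), 5 of ATP synthase (atp), 5 of cytochrome c maturation (ccm) and 7 of ribosomal proteins, as well as 3 ribosomal RNAs. That table lists these genes under other tags and pairs 0 of the 33 ATMG codes with a gene, and the equal number of 33 is a coincidence of counts. The loci are therefore given by code, without gene names or roles. None of the 33 has a code between ATMG00160 and ATMG00630 or between ATMG00720 and ATMG01120. Their counts and medians are those of the measured loci and need not describe the whole mitochondrial genome.

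Levels are log2 values made by RMA, a method that corrects background, normalizes between arrays and summarises the probes of a gene, so that 1 unit is a 2-fold difference. The organ labels were checked against markers given by locus code, and both organs stood on the side of their label. The median level of 6 measured photosynthesis genes was 12.45 to 12.63 in the shoot arrays, 8.34 in the rml1 root and 8.08 in the wild type root. The median of 10 genes of the endodermis, root hairs and other root tissue was 4.59 to 5.02 in the shoot arrays, 6.42 in the rml1 root and 8.40 in the wild type root. GSH1 itself read 8.61 to 8.96 in rml1 shoots, 8.11 to 8.45 in wild type shoots, 8.97 in the rml1 root and 8.14 in the wild type root, which does not check the genotype because the lesion leaves the transcript in place.

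Most mitochondrial loci lay below the median over all loci in the shoot arrays and the wild type root, but not in the rml1 root. Of the 33, 7 were above the array's median over all loci in all 8 arrays, 15 in 1 to 7 arrays and 11 in none, against 41.1% of all loci above it in every array and 40.9% in none. The 7 were ATMG00020, ATMG00030, ATMG00660, ATMG00690, ATMG01360, ATMG01380 and ATMG01390. The 11 that never passed the median were ATMG00010, ATMG00040, ATMG00120, ATMG00130, ATMG00140, ATMG00150, ATMG00680, ATMG00710, ATMG01350, ATMG01400 and ATMG01410. The median level of the 33 was 3.41 to 3.83 in rml1 shoots, 3.33 to 3.54 in wild type shoots, 3.40 in the wild type root and 4.87 in the rml1 root. The number of loci above their array's median was 9 to 15 in the 6 shoot arrays, 9 in the wild type root and 21 in the rml1 root. The rml1 root array thus had the highest median and the highest count of the 8 arrays.

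**Figure D1:**
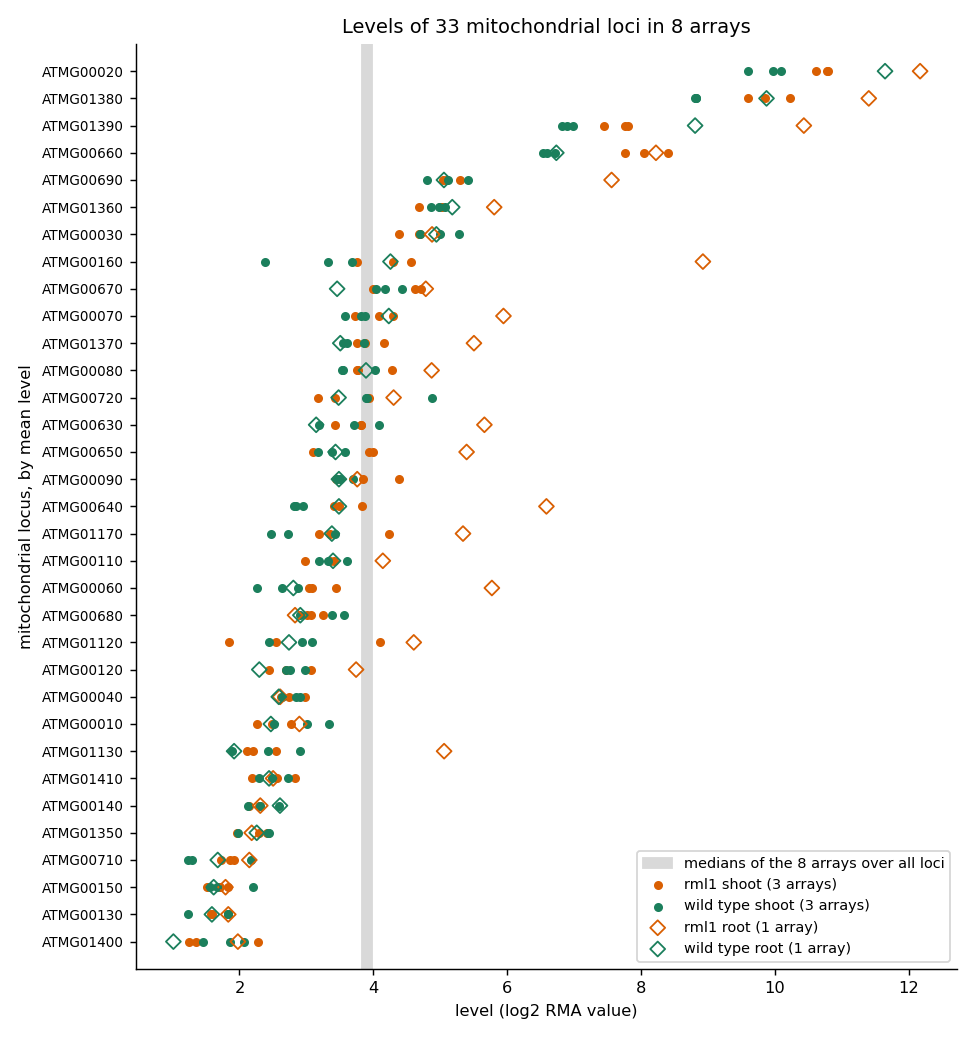
Level (log2 RMA value) of each of the 33 mitochondrial loci in the 8 arrays, 1 point per array, with loci sorted by their mean, which depends on the probes and is no ranking of abundance. Open orange diamonds, the rml1 root, lie to the right of the other points at ATMG00160, ATMG01130, ATMG00640, ATMG00060 and ATMG00690, among others, while loci at the bottom show no such gap.

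The first question was how the mitochondrial loci differ between rml1 and wild type roots. In the rml1 root array 29 of the 33 read higher than in the wild type root array (48.5% of all loci did), 16 of them by at least 2-fold, and 0 were lower by that much. Over all loci, 5.25% were at least 2-fold higher and 7.33% at least 2-fold lower in the rml1 root. The median difference of the mitochondrial loci was 0.98 log2 units, with quartiles of 0.27 and 1.96, against a median of -0.01 and quartiles of -0.32 and 0.31 over all loci. In samples of whole organs, a difference in the number of cells of a type or of organelles and a difference in RNA per cell cannot be told apart.

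ATMG00160 had the largest difference. Its level was 8.92 in the rml1 root and 4.26 in the wild type root, a difference of 4.67 (25.4-fold), which ranked it 24 among all loci by rise in the rml1 root. It stood at percentile 95.5 of the rml1 root array and at percentile 53.3 of the wild type root array. The shoot arrays read 3.76, 4.56 and 4.29 in rml1 and 3.69, 3.33 and 2.38 in the wild type. The rml1 root was therefore far above the other 7 arrays, and the shoot groups did not overlap, although their difference of 1.07 (SE 0.35) did not pass the test (adjusted p = 0.0667). It passed without wild type replicate 1 (adjusted p = 0.038), and without any other array the adjusted p was 0.0639 to 0.169.

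Another 3 loci came next, all of them below the array's median in the wild type root and above it in the rml1 root. ATMG01130 read 5.06 in the rml1 root and 1.92 in the wild type root, a difference of 3.14 (8.80-fold). Its shoot values, 2.20, 2.54 and 2.11 in rml1 and 2.43, 2.90 and 1.90 in the wild type, overlapped and lay near the low end of the scale. Whether its wild type root reading was above background was not analysed here, so the fold is that of the deposited values and no more. ATMG00640 read 6.59 and 3.49 in the same order, a difference of 3.10 (8.57-fold), and ATMG00060 read 5.77 and 2.81, a difference of 2.97 (7.81-fold). In wild type roots these 3 loci were at percentiles 16.8, 43.7 and 34.2, and in rml1 roots at 62.6, 80.1 and 71.1. A difference of at least 8-fold was seen at 3 of the 33 mitochondrial loci and at 0.458% of all loci.

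The next differences were those of ATMG00630, with 5.66 in the rml1 root against 3.15 in the wild type root (difference 2.51), and of ATMG00690, with 7.56 against 5.06 (difference 2.50). ATMG00690 was above the median in every array, and its 6 shoot values, 4.81 to 5.42, lay around the wild type root. The other 10 loci past the 2-fold limit differed by 2.50-fold to 3.99-fold. They were ATMG01370 (5.50 in the rml1 root and 3.51 in the wild type root), ATMG01170 (5.34 and 3.38), ATMG00650 (5.39 and 3.44), ATMG01120 (3.64-fold, from 2.74 in the wild type), ATMG00070 (5.94 and 4.23), ATMG01390 (10.43 and 8.81), ATMG01380 (11.40 and 9.87), ATMG00660 (8.22 and 6.73), ATMG00120 (3.74 and 2.30) and ATMG00670 (4.78 and 3.46). The rises were thus read at loci near the top of the scale as well as at loci below the median, and 15 of the 16 were above the median in the rml1 root, the exception being ATMG00120.

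A further 13 loci were higher in the rml1 root by less than 2-fold. ATMG00080 (difference 0.98) and ATMG01400 (0.96) lay just under the limit, followed by ATMG00720 (0.82), ATMG00110 (0.74), ATMG01360 (0.63) and ATMG00020 (0.52). ATMG01400 read 1.98 in the rml1 root, within the range of the rml1 shoots, and 1.01 in the wild type root, at percentile 0.41 of that array. Whether either reading was above background was not analysed here. The readings of ATMG00020 were at percentile 99.9 of the rml1 root array and 99.7 of the wild type root array. The other 7, ATMG00710, ATMG00010, ATMG00090, ATMG00130, ATMG00150, ATMG01410 and ATMG00040, differed by 0.02 to 0.47. The 4 loci that read lower in the rml1 root, ATMG00030, ATMG01350, ATMG00680 and ATMG00140, did so by between -0.06 and -0.29.

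**Figure D2:**
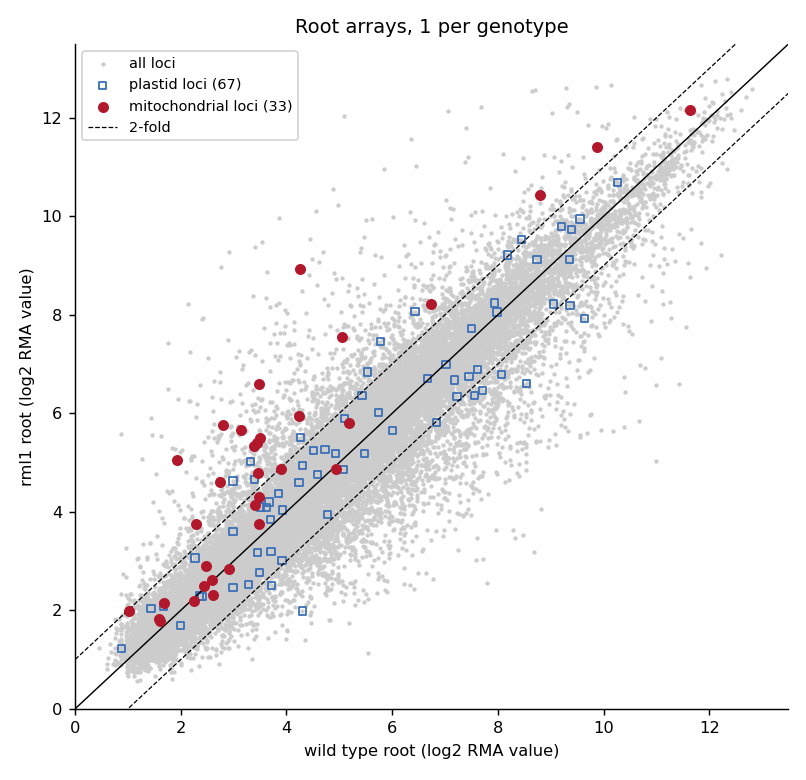
Level of every locus in the rml1 root array against the wild type root array (both log2 RMA values), with the 33 mitochondrial loci in red, the 67 plastid loci as blue squares, the solid line marking equality and the dashed lines a 2-fold difference. Of the red points 16 lie on or above the upper dashed line and 0 below the lower one, while the plastid loci lie on both sides.

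The 2 root arrays also differed in the tissue markers. Of 10 root markers 7 were at least 2-fold lower in the rml1 root, with a median difference of -1.85, and of 6 photosynthesis genes 1 was at least 2-fold higher, with a median difference of 0.52. The part of this difference in tissue in the mitochondrial readings was not tested. Plastid loci, the other organelle genome on the array, were at least 2-fold higher in the rml1 root at 9 of 67 and at least 2-fold lower at 9 of 67, with a median difference of 0.17. Their extremes were ATCG00430, which read 5.02 in the rml1 root and 3.32 in the wild type root, and ATCG00560, which read 1.99 and 4.30.

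The second question was how the mitochondrial loci differ between rml1 and wild type shoots, where 3 arrays per genotype allowed a test. Of the 33, 6 rose in rml1, 0 fell and 27 did not pass (limma over all loci, adjusted p under 0.05). Over all loci 13.3% were called higher in rml1 and 10.6% lower. The 6 rises are 18.2% of the mitochondrial loci, which is near that background, so the count by itself says little about these loci. At an unadjusted p under 0.05, 8 of the 33 passed, against 36.1% of all loci. The median difference was 0.03, close to the median of -0.03 over all loci.

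Of the 6 called loci, 4 were above the median in all 8 arrays. ATMG00660 had the largest rise: it read 8.05, 7.76 and 8.40 in rml1 shoots and 6.60, 6.72 and 6.53 in wild type shoots. Its means of 8.07 ± 0.32 and 6.62 ± 0.09 (SD, n = 3) differed by 1.45 (2.74-fold, SE 0.16, adjusted p = 0.00127), and the rml1 root (8.22) and wild type root (6.73) lay close to the shoot arrays of their own genotype. ATMG01380 read 9.85, 10.23 and 9.60 in rml1 shoots against 8.82, 8.81 and 8.82 in wild type shoots, a rise of 1.08 (2.11-fold, SE 0.16, adjusted p = 0.00328). At both loci every rml1 shoot array was above every wild type shoot array, and they were the 2 members that rose at least 2-fold, as 2.66% of all loci did.

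ATMG00020 read 10.62, 10.80 and 10.78 in rml1 shoots and 9.59, 9.98 and 10.09 in wild type shoots, a rise of 0.85 (1.80-fold, SE 0.14, adjusted p = 0.00587). ATMG01390 read 7.44, 7.77 and 7.81 against 6.82, 6.89 and 6.99, a rise of 0.77 (1.71-fold, SE 0.12, adjusted p = 0.00452). The genotypes did not overlap at either locus. ATMG00640, below the median in every shoot array, read 3.42, 3.83 and 3.49 in rml1 shoots and 2.81, 2.85 and 2.94 in wild type shoots, a rise of 0.71 (1.64-fold, SE 0.13, adjusted p = 0.00702).

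The sixth call, ATMG00060, was close to the threshold. It read 3.09, 3.44 and 3.04 in rml1 shoots and 2.87, 2.63 and 2.26 in wild type shoots, a difference of 0.61 (SE 0.18, adjusted p = 0.0492). Leaving out wild type replicate 1 kept the call, and leaving out any of the other 5 shoot arrays ended it (adjusted p = 0.0826 to 0.126). The other 5 loci were called with any 1 array left out, at adjusted p up to 0.0276.

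Among the 27 loci that did not pass, 14 had the higher mean in rml1 and 13 in the wild type, with differences from -0.71 at ATMG00720 to 1.07 at ATMG00160. ATMG01170 followed with 0.72 (SE 0.33, adjusted p = 0.168). ATMG00030 was the only member whose wild type shoots, 5.27, 4.99 and 4.70, lay above all rml1 shoots, 4.69, 4.68 and 4.39 (difference -0.40, SE 0.16, adjusted p = 0.125). Groups did not overlap at 7 of 33 loci with rml1 above and at 1 of 33 with the wild type above, against 21.9% and 20.2% of all loci. The precision was poorest at ATMG01120, which read 1.85, 4.10 and 2.54 in the 3 rml1 shoot arrays (SE 0.52). Calls at single low loci also came and went with the arrays used: ATMG00010 was called lower in rml1 without wild type replicate 1 (adjusted p = 0.0481), ATMG00650 higher without rml1 replicate 1 (0.0415) and ATMG00710 higher without wild type replicate 2 (0.0167).

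**Figure D3:**
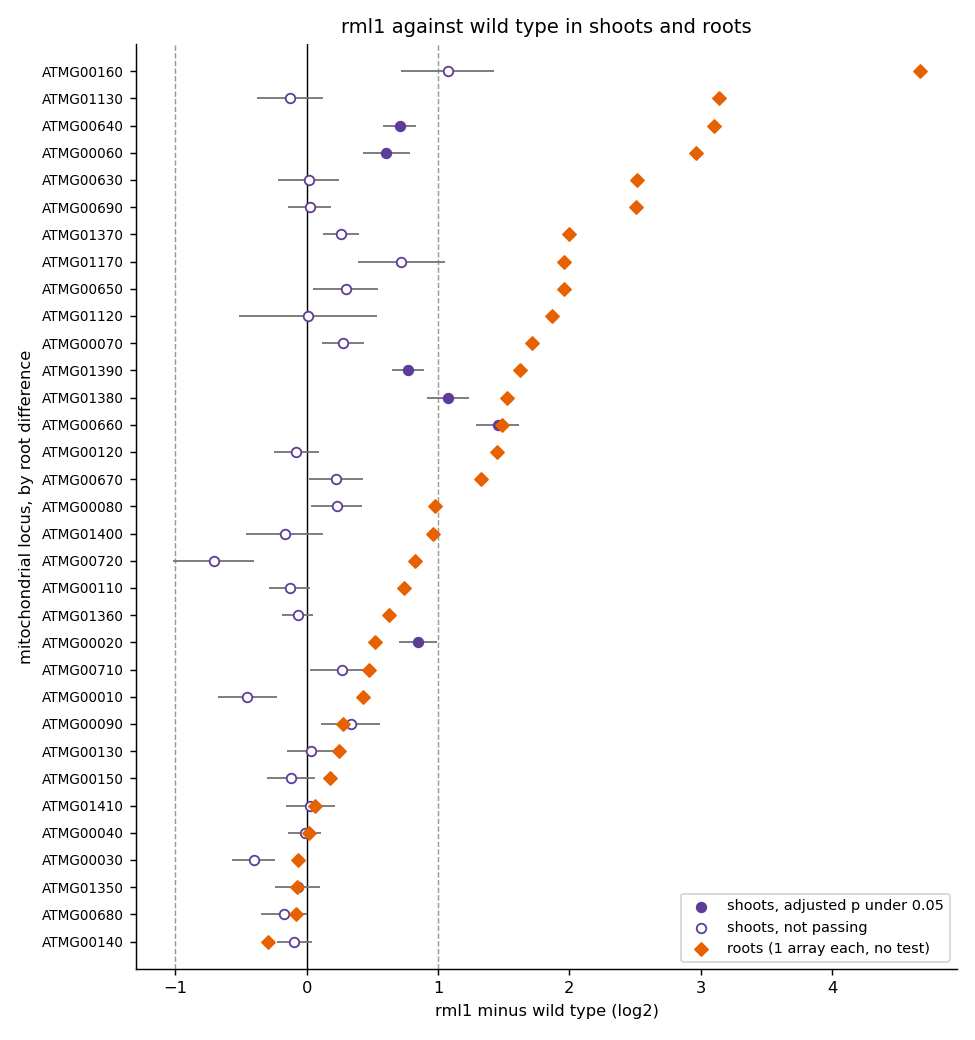
Difference between rml1 and wild type (log2) at each of the 33 mitochondrial loci, sorted by the root difference: circles are shoots with their standard error (n = 3 arrays each, filled where adjusted p was under 0.05) and diamonds are roots (1 array each, no test). Dashed lines mark 2-fold. Of the 6 filled circles 5 belong to loci whose root difference passes 2-fold, an overlap that was not counted over all loci. ATMG00660 has nearly the same difference in both organs (1.45 and 1.49).

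Of the 16 loci at least 2-fold higher in the rml1 root, 5 were called in shoots and 11 were not. The matching share over all loci was not counted, so this overlap is not shown to be particular to these loci. The sixth shoot call, ATMG00020, differed by 0.52 in roots. Across the 33 loci, Pearson's r between the shoot and root differences was 0.47 and Spearman's rho 0.48, and without ATMG00160 they were 0.37 and 0.43 (n = 32 loci). Across all loci they were 0.36 and 0.32. These describe loci, which are not independent replicates, and roots and shoots may come from the same seedlings. In each genotype the root array pooled as many roots as there were shoots in its shoot arrays together. Whether the effect of genotype differs between the organs was not tested.

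Set against shoots of the same genotype, the wild type root read above all 3 wild type shoot arrays at 9 of the 33 loci and below all of them at 8, while over all loci these shares were 41.2% and 35.4%. The rml1 root read above all 3 rml1 shoot arrays at 24 of the 33 and below at 2 (41.2% and 34.8% of all loci). A root level at least 2-fold above the shoot mean was read at 4 loci in the wild type, against 13.8% of all loci, and at 15 in rml1, against 10.6%. A root level at least 2-fold below it was read at 0 of the 33 in either genotype, against 9.98% of all loci in the wild type and 9.5% in rml1. The 4 in the wild type were ATMG00020, ATMG01380, ATMG01390 and ATMG00160. The median root minus shoot difference of the 33 was -0.04 in the wild type and 0.90 in rml1. This rests on the same rml1 root array as the comparison of genotypes, and is therefore no second observation of it. All 67 plastid loci were below the shoot arrays in both roots.

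Nuclear genes that serve the mitochondrion were described by lists, whose differences from the mitochondrial loci were not tested. Of 72 measured nuclear genes for subunits of respiratory complexes I to IV, ATP synthase (complex V) and cytochrome c, 55 rose in rml1 shoots, 1 fell and 16 did not pass, with a median of 0.49, where 13.3% of all loci were called higher and 10.6% lower. In roots 5 of the 72 were at least 2-fold higher in rml1, which is near the 5.25% of all loci, 0 were lower by that much, and the median difference was 0.19. The number that rose in shoots was 34 without rml1 replicate 3 and 35 without wild type replicate 3. The mitochondrial loci had a median of 0.03 in shoots and 0.98 in roots. Median levels in the shoot arrays were 8.54 to 9.34 for the nuclear genes and 3.33 to 3.83 for the mitochondrial loci. Among loci above the median level in shoots, 7459 of 14960 were called in either direction. There 60 of 70 nuclear genes were called up and 1 down. Of 10 mitochondrial loci kept, 4 were called up and 0 down, with a median of 0.25.

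By complex, 19 of 25 complex I genes rose in shoots, 7 of 9 of complex II, 12 of 17 of complex III with cytochrome c (1 fell), 8 of 9 of complex IV and 9 of 12 of ATP synthase. With 1 array left out complex I lost the most, with 8 genes rising without rml1 replicate 3 or wild type replicate 3, 9 without rml1 replicate 1, 11 without rml1 replicate 2 and 12 without wild type replicate 2. Complex IV had 5 rising genes when replicate 2 or 3 of either genotype was left out. The largest rise was that of SDH1-1 (AT5G66760), the flavoprotein of succinate dehydrogenase, with 8.26 ± 0.22 in rml1 and 6.98 ± 0.13 in the wild type (SD, n = 3; difference 1.28, SE 0.14, adjusted p = 0.00103). CYTC-2 (AT4G10040), a cytochrome c, led the list of complex III with cytochrome c (1.08, SE 0.17). Complex II takes no subunit from the mitochondrial genome in the RefSeq table other than a pseudogene. AT3G03100 (0.86, SE 0.09), AT5G57815 (0.92, SE 0.11) and AT5G08690 (0.97, SE 0.14) led the lists of complex I, complex IV and ATP synthase. AT2G01090, of complex III, fell by 0.53 (SE 0.13, adjusted p = 0.0229). Of the 6 shoot arrays, the fall could spare rml1 replicate 2 alone, and with any of the others left out its adjusted p was 0.0551 to 0.0818.

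The nuclear genes that make and process mitochondrial RNA, and those that maintain mitochondrial DNA, were called in shoots at shares near or under the 13.3% of all loci called higher. These shares moved with a filter on level. Among loci above the median level in shoots, 6 of 9 RNA genes kept and 3 of 10 DNA genes kept were called up. With that filter 7459 of 14960 loci were called in either direction. Of 27 genes of mitochondrial transcription, splicing, editing and RNA decay, 3 rose and 0 fell in shoots (median 0.12), and 4 were at least 2-fold higher and 0 lower in the rml1 root (median 0.43), against 5.25% and 7.33% of all loci. The largest rise in shoots was that of RIP1 (AT3G15000), an RNA editing factor, by 0.57 (SE 0.13, adjusted p = 0.0213), with a root difference of 1.21. It did not pass when rml1 replicate 1, rml1 replicate 3 or wild type replicate 3 was left out (adjusted p of 0.0636, 0.0631 and 0.0675), and 0 of the 27 rose with limma without rml1 replicate 1 or rml1 replicate 3. PMH2 (AT3G22330), an RNA helicase of mitochondria chosen after its values were seen, read 1.65 higher in the rml1 root. Of 15 genes of DNA maintenance 1 rose in shoots (median 0.06) and 3 were at least 2-fold higher in the rml1 root (median 0.58), and 2 rose in shoots without rml1 replicate 2. The gene that rose was ATWHY2 (AT1G71260), a single-stranded DNA binding protein of mitochondria, by 0.51 (SE 0.12, adjusted p = 0.0193), and it did not pass without rml1 replicate 3 (0.0648) or without the wild type replicates 2 (0.0619) or 3 (0.0632).

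Genes of the alternative pathway, in which alternative NADH dehydrogenases and the alternative oxidase pass electrons around complexes I, III and IV, moved in both directions in shoots. Of 12, 4 rose, 2 fell and 6 did not pass (median 0.06), against 13.3% of all loci called higher and 10.6% lower. In roots 5 were at least 2-fold higher and 0 lower in rml1 (median 0.90), against 5.25% and 7.33% of all loci. The number that fell was 1 when any shoot array other than wild type replicate 2 was left out. NDB2 (AT4G05020), an external NADH dehydrogenase, rose by 1.81 (SE 0.11, adjusted p = 0.000222) and had a root difference of 1.56. NDA1 (AT1G07180), an internal one, fell by 1.15 in shoots (SE 0.13, adjusted p = 0.00115) and read 1.78 higher in the rml1 root. AOX1A (AT3G22370), an alternative oxidase, rose by 1.79 in shoots (SE 0.16, adjusted p = 0.00056) and had a root difference of 2.71. It was chosen after its values were seen, as was AOX1D (AT1G32350), another alternative oxidase. AOX1D differed by 0.03 in shoots (SE 0.10, adjusted p = 0.875) and by 4.04 in roots. Its mean shoot levels (rml1 2.43, wild type 2.41) and its wild type root level (2.62) lay below the median over all loci. The other alternative oxidases, AOX1B, AOX1C and AOX2, did not pass in shoots.

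**Figure D4:**
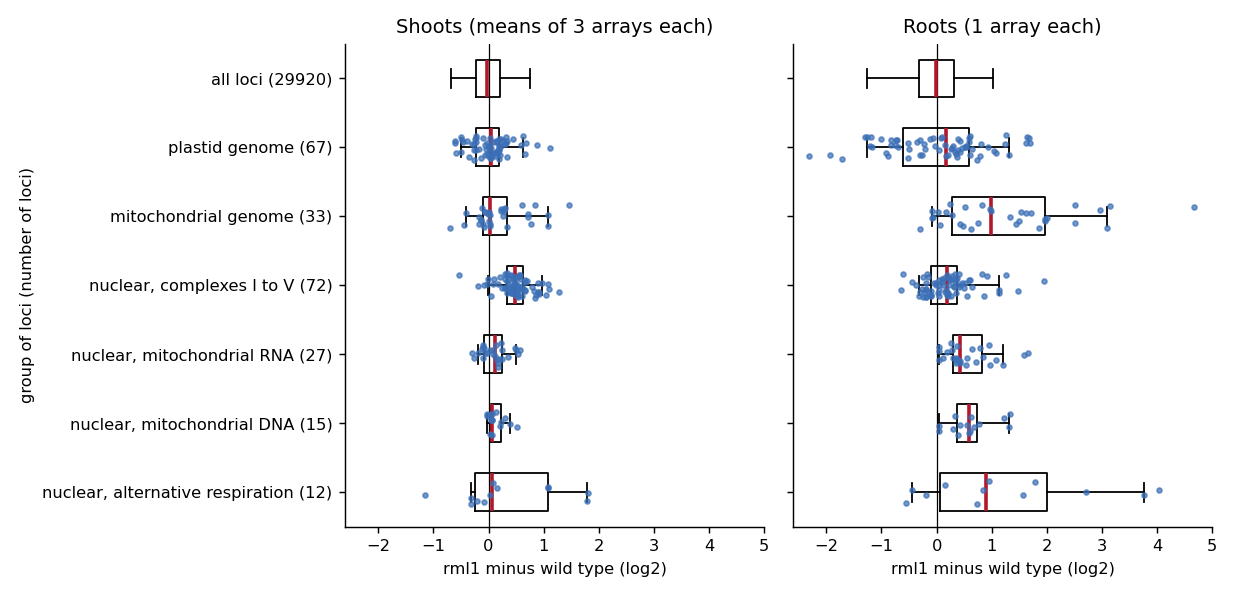
Difference between rml1 and wild type (log2) in shoots (left) and roots (right) for all loci, both organelle genomes and 4 groups of nuclear genes for mitochondrial functions; points are loci, boxes span the quartiles with the median in red, and whiskers run from percentile 5 to 95. The nuclear genes of complexes I to V have a median of 0.49 in shoots and 0.19 in roots, and the mitochondrial loci 0.03 and 0.98. The median level of these nuclear genes is higher than that of the mitochondrial loci in every array.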

How the data were processed

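The authors deposited log2 values made with RMA, per the submitters' processing notes. Which RMA version, probe assignment and build were used is not given in the sources used here, and no positions or sequences are printed. The labels do not say how RNA was primed for labelling, which bears on organelle transcripts because these mostly lack stable poly(A) tails. Detection above background was not analysed here.

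Entries were averaged per locus by the first 9 characters of the row code (30237 entries, 29920 loci, and 1 entry for each mitochondrial locus). Groups came from the sample titles, which call the shoot samples biological replicates. The shoot test was limma's, version 3.58.1 under R 4.3.3 (lmFit, eBayes, genotype only, two-sided, Benjamini-Hochberg over all loci, adjusted p under 0.05), tested on simulated data. Levels carry the SD over arrays, and log2 differences the standard error from limma. Roots were described with a 2-fold limit. The members, the nuclear lists, the tests and the rule for naming genes (every member, and the largest called rise and fall of each list) were chosen with earlier results of these data known. Of 126 measured nuclear list members 74 have a symbol in RefSeq, and the others were placed by locus code from general knowledge. Alternatives changed normalization, filters, moderation, weights, block, threshold, limit, unit and arrays. Plots used matplotlib 3.10.9 and Python 3.11.15.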

Additional observations from a re-analysis of the deposited data

Results flagged for a closer look

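At 2 genes named here, all rml1 shoot arrays lay on one side of the wild type shoots while the rml1 root lay on the other side of the wild type root. NDA1, an alternative NADH dehydrogenase, differed by -1.15 in shoots and by 1.78 in roots. PER64, a peroxidase used here as a root marker, differed by 0.90 in shoots and by -2.04 in roots. The difference between the organs was not tested, since each genotype has 1 root array. None of the 33 mitochondrial loci met this condition, and the share over all loci was not counted. Since 29 of the 33 read higher in the rml1 root and wild type shoots lay above at 1, few could have met it. The absence therefore says little about these loci.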

How the results depend on the processing

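Of the 33 mitochondrial loci, 6 were called up in shoots in every other setting than those that left arrays out or kept loci above the median level alone (4 of 10 loci kept), apart from the stricter adjusted p under 0.01, where 5 were called. With 1 array left out 5 to 7 were called up and 0 to 1 down, and their median difference was 0.00 to 0.15. It was 0.25 with loci above the median level alone, a filter that removes low loci. Over all loci 7138 were called, 4508 to 6480 with 1 array left out and 3583 at an adjusted p under 0.01. Of the nuclear genes of complexes I to V, 34 to 47 were called up and 0 to 1 down with 1 array left out, and 31 and 0 at the stricter threshold. The fit of all 8 arrays gave the values of the shoot fit, as lone root arrays add nothing to the spread. No called locus changed sign. In roots, 17 loci passed 2-fold with quantile normalization, 18 with median centring and 21 passed 1.5-fold, with 0 lower each time. With root loci above the median level alone, chosen after seeing the data, 13 of 17 passed and the median difference was 1.71, which shows nothing further because loci could pass that filter through a high rml1 root value alone.

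Same-numbered shoot arrays of both genotypes did not deviate together (Pearson's r across loci -0.03, -0.00 and -0.10 for numbers 1, 2 and 3), so the numbers were not taken as pairs. With the replicate number as a block 6 mitochondrial loci were called up, with ATMG01170 gained (adjusted p = 0.011) and ATMG00060 not passing (0.0505), 5189 of all loci were called, and 37 of the nuclear genes of complexes I to V were called up, 9 of them in complex I and 5 in complex IV. RIP1 (0.0604) and ATWHY2 (0.0532) did not pass with the block, which left 0 genes of DNA maintenance, and 1 gene of the alternative pathway fell.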

Other observations

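Chromosome 2 of Arabidopsis carries a large insertion of mitochondrial DNA, whose loci may share probes with the mitochondrial genome. Of 22 measured loci with codes between AT2G07660 and AT2G07840, a range taken from general knowledge of that insertion, 0 were called in shoots with limma and 4 had an unadjusted p under 0.05. The range was set by code and not by position, so it may hold nuclear genes that are no part of the insertion. Values of the 22 are therefore those of a code range and not of known copies of mitochondrial DNA. Over all loci 13.3% were called higher, 10.6% were called lower and 36.1% had an unadjusted p under 0.05. In the rml1 root 2 of the 22 were at least 2-fold higher than in the wild type root and 0 lower. These shares were 5.25% and 7.33% over all loci. The median root difference of the 22 was -0.01, against 0.98 for the mitochondrial loci. No entry of the table had the same 8 values as a mitochondrial entry. The transcribed pseudogene AT2G07811 was the nearest of the 22 to ATMG00160 and to 7 other members by its largest difference over the arrays. That difference was 2.90 for ATMG00160 and 1.26 to 7.11 for the others, so the nearest locus need not have similar values. AT2G07811 read 6.02 in the rml1 root and 4.54 in the wild type root. In shoots it read 4.15, 5.34 and 5.29 in rml1 and 4.35, 3.88 and 3.37 in the wild type, groups that overlap (difference 1.06, SE 0.37, adjusted p = 0.0802). It passed without rml1 replicate 1 (0.018) and with loci above the median level alone (0.0371).

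Of 67 plastid loci, 4 rose in rml1 shoots and 6 fell, with a median of 0.04, against 13.3% of all loci called higher and 10.6% lower. The largest rise was ATCG00500, which read 6.65, 7.07 and 7.03 in rml1 and 5.67, 5.96 and 5.78 in the wild type (difference 1.11, SE 0.14, adjusted p = 0.00184). The largest fall was ATCG00640 (difference -0.61, SE 0.16, adjusted p = 0.0355), which did not pass when any rml1 array was left out (0.104, 0.0765 and 0.0921 for replicates 1, 2 and 3) or wild type replicate 1 (0.0596).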
